A study of Sus scrofa with 2 samples.

Results

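PTHLH, PTH1R and SOX9 were followed as a secreted ligand, its receptor and a transcription factor of skin appendages in cells of pig skin. They were found by symbol in the gene lists of both count matrices, and they are 3 of the 31908 genes listed there. Dorsal skin of male farm pigs was dissociated into cells with an enzyme kit for whole human skin, dead cells were removed by FACS, and the cells were profiled with the 3′ kit of 10x Genomics, where a unique molecular identifier (UMI) marks each captured transcript. The fresh library came from cells used directly, and the cryopreserved library from cells frozen in 90% FBS + 10% DMSO, kept in liquid nitrogen and thawed. Both samples carry an extraction protocol that mentions freezing, whereas the title and the treatment label mark one of them as fresh, and whether the same animal gave both libraries is not stated. Each condition has 1 library, so the spread between samples is unknown, no test was run, and the differences below are those of these libraries.

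PTHLH encodes parathyroid hormone-related protein, a local signal that was first known from tumours that raise blood calcium and that acts in cartilage, breast and skin. It binds PTH1R, the G protein-coupled receptor that it shares with parathyroid hormone and that signals through cyclic AMP and protein kinase A and through phospholipase C. SOX9 encodes a transcription factor that is needed for cartilage and for the stem cells and outer root sheath of the hair follicle. In skin, epithelial PTHLH and a receptor in the dermis are a known pair of signals between the layers.

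On the Sscrofa11.1 build, RefSeq places PTHLH on chromosome 5 from 45750968 to 45763421 on the plus strand (ENSSSCG00000036893), with 4 transcripts of 3 to 4 exons, 3 different starts and 3 different ends. SOX9 (ENSSSCG00000017251) lies on chromosome 12 from 8642154 to 8647315 on the minus strand, with 1 transcript of 3 exons. PTH1R (ENSSSCG00000011326) lies on chromosome 13 from 29749940 to 29775361 on the plus strand, and its single model of 15 exons is marked as partial, so its start is not certain. The 300 bases before the annotated gene starts of PTHLH and SOX9 are shown because these genes shared a keratinocyte cluster below. Of the 3 PTHLH starts only the most upstream was used, and the windows before the others were not searched. The promoter of PTHLH is chr5:45750668-45750967 on the plus strand and that of SOX9 is chr12:8647316-8647615 on the minus strand, each written 5′ to 3′ towards the start, with matches to the searched motifs in capitals.
PTHLH: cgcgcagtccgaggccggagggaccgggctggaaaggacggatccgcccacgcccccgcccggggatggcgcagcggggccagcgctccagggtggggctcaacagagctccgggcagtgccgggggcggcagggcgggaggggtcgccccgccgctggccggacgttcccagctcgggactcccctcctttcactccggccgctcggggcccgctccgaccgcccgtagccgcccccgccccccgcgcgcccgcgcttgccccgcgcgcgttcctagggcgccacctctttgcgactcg
SOX9: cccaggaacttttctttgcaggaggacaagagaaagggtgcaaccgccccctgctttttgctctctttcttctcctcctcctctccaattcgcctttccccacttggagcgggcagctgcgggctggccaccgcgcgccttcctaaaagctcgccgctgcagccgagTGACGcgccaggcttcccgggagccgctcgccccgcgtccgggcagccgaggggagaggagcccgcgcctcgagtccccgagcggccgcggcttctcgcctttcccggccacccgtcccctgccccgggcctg
Both windows were rich in G and C, at 79% for PTHLH and 69% for SOX9, against a median of 56.7% and quartiles of 47.7 and 66% over 19569 promoters of the same length. The letters TGACG, the core of the cyclic AMP response element, were searched on both strands and matched once in SOX9, starting 133 bases before the start, and not in PTHLH, while 22.2% of all promoters held them. The SOX core ACAAT, held by 25.2% of all promoters, and the TATA box TATAAA, held by 11.9%, had no match in either window. A match or its absence describes the letters of these windows only.

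The fresh matrix held 4379 barcodes and 53271738 UMIs and the cryopreserved matrix 4860 barcodes and 42217632 UMIs, of which 2775 and 4223 cells passed the filters of the study, with a median of 11017 and 7945 UMIs per cell. The libraries shared 6 barcodes, 5 of them in cells that passed in both. In the cells that passed, PTHLH had 176 fresh and 382 cryopreserved UMIs, SOX9 had 376 and 836, and PTH1R had 851 and 757. Cells were clustered jointly without these genes, which gave 25 clusters, of which 3 stayed unnamed. Keratinocyte-like cells numbered 529 (fresh) and 1058 (cryopreserved), fibroblast-like cells 1155 and 1497, and mural-like cells, the muscle-like cells of vessel walls, 246 and 372. Levels are in CPM, the UMIs of a gene per 1000000 UMIs of a group of cells in one library, and ranges in brackets are exact 95% intervals that cover counting error only.

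PTHLH was a transcript of keratinocyte-like cells, and of few of them. These cells held 69.9% of its UMIs (62.5 to 76.6) in the fresh library and 75.1% (70.5 to 79.4) in the cryopreserved library, while they made up 19.1 and 25.1% of the cells. A single cluster of 110 fresh and 250 cryopreserved cells, cluster 8, held 69.3% (61.9 to 76.0) and 67.3% (62.3 to 72.0) of all PTHLH UMIs. Its 10 leading genes by fold included PTHLH and SOX9 themselves, HSD17B2, an enzyme that inactivates sex steroids, the orphan nuclear receptor ESRRG, C1QTNF12, the integrin subunit ITGB8 and the ephrin receptor EPHB1. In cluster 8 PTHLH stood at 88.6 CPM (73.6 to 106) in the fresh library, from 122 UMIs, and at 113 CPM (100 to 128) in the cryopreserved library, from 257 UMIs. Of the other keratinocyte clusters, 3 were at or near 0 in both libraries. Cluster 2, led by SERPINB2, the growth factors EREG and AREG and the tight junction gene CLDN4, had 1 PTHLH UMI in the fresh library (0.338 CPM) and 4 in the cryopreserved library (1.09 CPM). Cluster 10, led by ASCL2, SOX6, DLK2 and the basal keratin KRT15, had 0 and 3 UMIs (1.51 CPM in the cryopreserved library), and cluster 13, led by the differentiation genes KRT1, KRT10 and CALML5, had 0 in both. The dividing cluster 19, led by CDC20, CCNB1 and UBE2C, had 0 UMIs in 23 fresh cells but 23 UMIs in the cryopreserved library, a level of 25.5 CPM (16.2 to 38.3). These lay in 8 cells, and without the cell that held 7 of them the level was 18 CPM. PTHLH in cluster 8 over the other keratinocyte-like cells was 563-fold in the fresh library (99.2 to 22400), against 1 UMI, and 31.7-fold (21.7 to 48.0) in the cryopreserved library, against 30 UMIs. Cluster 8 was chosen as the keratinocyte cluster with most PTHLH, so this ratio is a description. It was 121-fold in the cryopreserved library without cluster 19, and 54.6-fold in the fresh library when all barcodes were clustered without the filters.

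**Figure D1:**
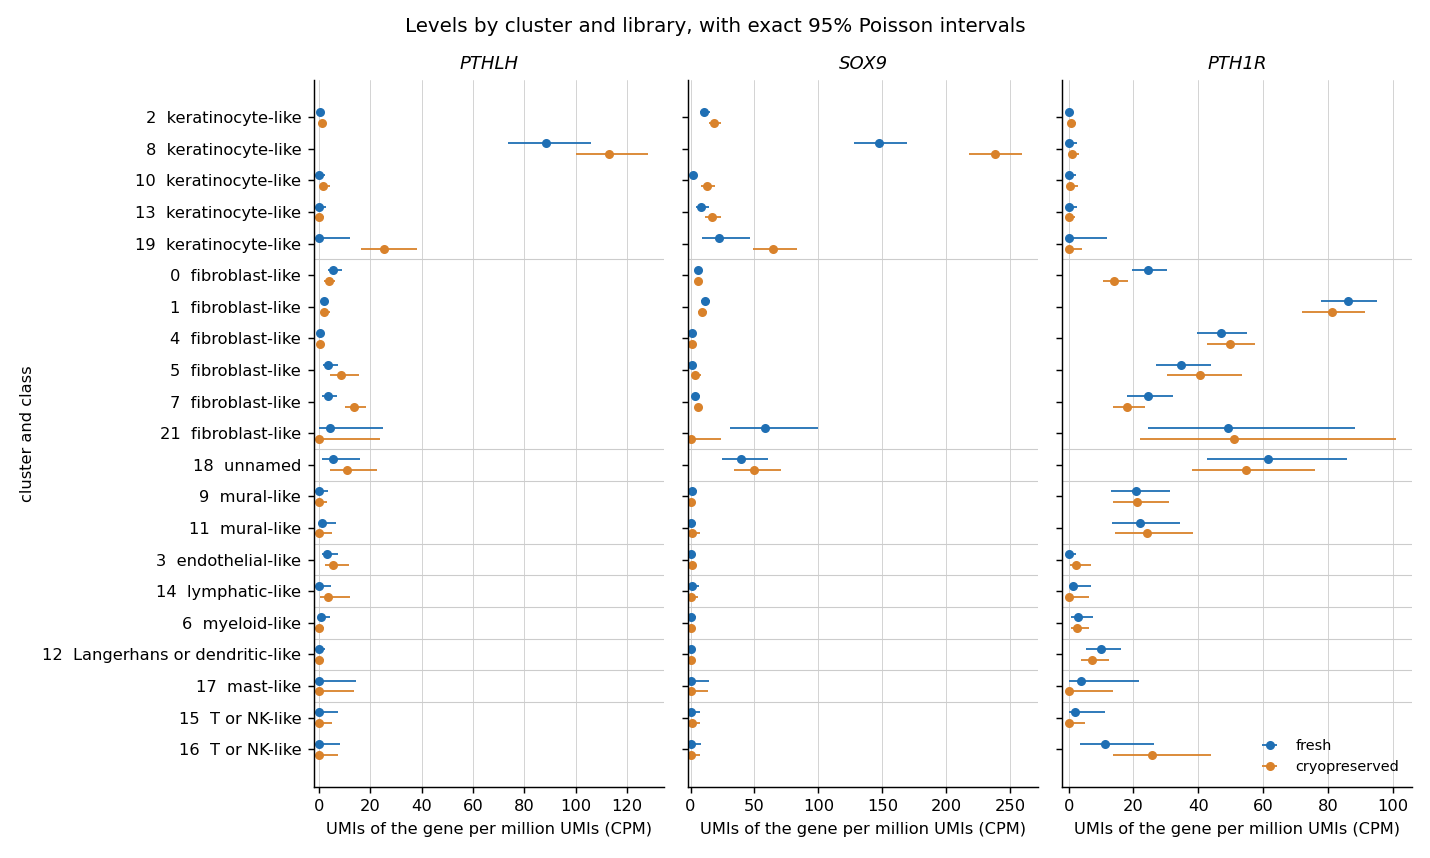
Level of PTHLH, SOX9 and PTH1R by cluster, in CPM on a linear axis with its own range for each gene, with 1 point per library and bars for exact 95% counting intervals. Clusters 20, 22, 23 and 24, which had at most 14 fresh cells each, are not drawn. PTHLH and SOX9 stand highest in keratinocyte cluster 8 (88.6 and 113 CPM, 147 and 238 CPM, fresh and cryopreserved), and PTH1R stands highest in fibroblast cluster 1 (86.2 and 81.2 CPM).

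Within cluster 8, most cells had no PTHLH UMI. In the fresh library 68 cells had 0 UMIs, 18 had 1, 18 had 2 to 4 and 6 had 5 or more, with a maximum of 12. In the cryopreserved library the same classes held 167, 36, 36 and 11 cells, with a maximum of 25. PTHLH was therefore detected in 38.2% of the cluster's cells (29.1 to 47.9) in the fresh and 33.2% (27.4 to 39.4) in the cryopreserved library. With each cell thinned to 2000 UMIs, which left out 76 fresh and 200 cryopreserved cells over the whole data, the shares were 13 and 16.1%. In T or NK-like cells, lymphocytes that should lack the gene, 0 of 145 fresh cells had a PTHLH UMI, which allows a share of up to 2.07%, and 0 of 253 cryopreserved cells, which allows up to 1.19%. Such limits are 3 counts of the total, and they concern cells with a UMI, not cells that express the gene. Their median depth was 6512 and 4820 UMIs, below the 12253 and 8416 of cluster 8.

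PTHLH was also counted in fibroblast-like cells, at levels below that of cluster 8. They had 43 fresh UMIs (2.83 CPM), in 33 cells, and 79 cryopreserved UMIs (5.0 CPM), in 46 cells. These were 24.4 and 20.7% of all PTHLH UMIs, from 41.6 and 35.4% of the cells. Keratinocyte-like cells stood 5.63-fold above fibroblast-like cells (3.95 to 8.17) in the fresh and 5.39-fold (4.19 to 7.01) in the cryopreserved library. Without cluster 8 the order turned, as the other keratinocyte-like cells together had 0.157 and 3.58 CPM. Cluster 7, led by SEMA3G, SHISA3 and PTX3, had 3.42 CPM (1.37 to 7.04) and 13.8 CPM (10.1 to 18.5), where 2 cryopreserved cells held 20 of 45 UMIs, with 7.75 CPM left without them. Those cells had 937 and 1173 collagen UMIs and 8 and 9 keratinocyte-marker UMIs, and the second had a high doublet score. Among the larger fibroblast clusters, cluster 0 had 5.65 and 3.78 CPM, cluster 5 had 3.62 and 8.76, cluster 1 had 1.78 and 2.04, and cluster 4 had 1 UMI in each library. Pooled, fibroblast-like cells with a PTHLH UMI had 0.0161 and 0.0349% of their UMIs on keratinocyte markers (DST left out). Those without one had 0.00402 and 0.00915%, and the PTHLH-positive cells of cluster 8 had 1.72 and 1.97%. The fresh fibroblast-like cell with most PTHLH (4 UMIs, in cluster 0) alone held 38 keratinocyte-marker UMIs among its 12012 UMIs. Medians over single fibroblast-like cells were lower, at 0.00563% (fresh) and 0.00813% (cryopreserved) with PTHLH, and 0.0% in both libraries without it. Among the fibroblast-like cells with a PTHLH UMI, 15.2% in each library were in the top 6% of doublet scores, against 5.88 and 7.10% of those without, and the part of doublets or free RNA in these counts was not tested. Endothelial-like cells had 5 and 7 UMIs, and mural-like cells 1 and 0.

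**Figure D2:**
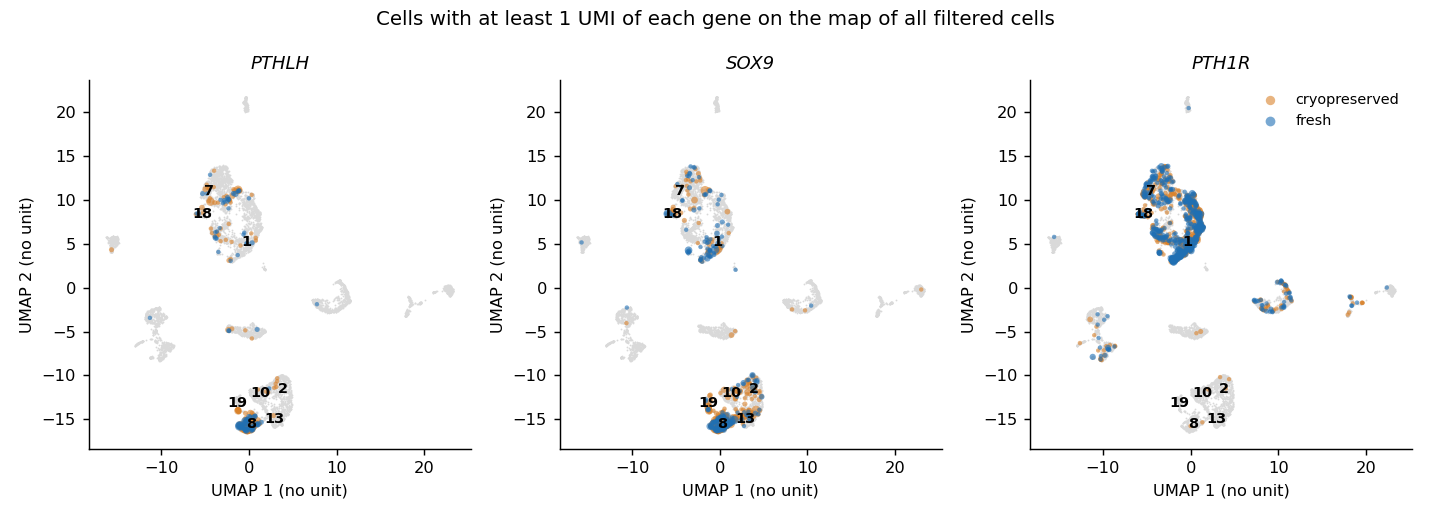
UMAP of the filtered cells of both libraries, with cells that had at least 1 UMI of PTHLH, SOX9 or PTH1R coloured by library, the other cells in grey, and cluster numbers printed in black. PTHLH and SOX9 cells gather in the same keratinocyte area, and PTH1R cells lie over the fibroblast area, where 36.6% of fresh and 28.9% of cryopreserved fibroblast-like cells had a UMI.

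SOX9 had its highest level in the same cluster. It was used neither to form the clusters nor to choose this one, but the members were chosen together with earlier results of these data known, so the shared cluster is a description. Keratinocyte-like cells held 67.8% of its UMIs (62.8 to 72.5) in the fresh library and 86.2% (83.7 to 88.5) in the cryopreserved library, and cluster 8 alone held 54.0 and 64.4%. SOX9 in cluster 8 stood at 147 CPM (128 to 169) in the fresh library, from 203 UMIs, and at 238 CPM (218 to 259) in the cryopreserved library, from 538 UMIs. This was 18-fold (13.2 to 24.9) and 10.9-fold (9.19 to 12.9) above the other keratinocyte-like cells. SOX9 was detected in 63.6% of the cluster's fresh and 71.2% of its cryopreserved cells, and in 22.2 and 32.2% of them after thinning to 2000 UMIs. In the fresh library 40 cells had 0 SOX9 UMIs, 25 had 1, 32 had 2 to 4 and 13 had 5 or more, and in the cryopreserved library 72, 62, 85 and 31.

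The other keratinocyte clusters had lower SOX9 levels. The dividing cluster 19 followed cluster 8, at 22.6 CPM (9.11 to 46.7) in the fresh and 64.4 CPM (48.9 to 83.2) in the cryopreserved library. Then came cluster 2, at 10.5 CPM (7.13 to 14.9) and 18.7 CPM (14.6 to 23.7), cluster 13, at 7.97 and 16.6 CPM, and the KRT15 cluster 10, at 1.75 CPM from 3 UMIs and 13 CPM from 26 UMIs. In the fresh library the intervals of every neighbouring pair below cluster 8 overlapped (for clusters 13 and 10, 3.98 to 14.3 and 0.362 to 5.13 CPM), and in the cryopreserved library those of clusters 2, 13 and 10 did. T or NK-like cells had 0 fresh and 1 cryopreserved SOX9 UMI.

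In the dermis SOX9 was low against cluster 8. Fibroblast-like cells had 6.24 CPM (fresh) and 5.0 CPM (cryopreserved), so that keratinocyte-like cells stood 5.28-fold (4.16 to 6.76) and 13.5-fold (10.7 to 17.3) higher. Without cluster 8 the fresh gap was small, as the other keratinocyte-like cells together had 8.18 CPM (fresh) and 21.8 CPM (cryopreserved). Fresh keratinocyte clusters 2, 13 and 10 (10.5, 7.97 and 1.75 CPM) were not above fibroblast cluster 1 (11.4 CPM). Fresh cluster 19 stood higher, at 22.6 CPM from 7 UMIs, but its interval overlapped that of cluster 1. Without its top cell 13.4 CPM was left. In the cryopreserved library every keratinocyte cluster stood above cluster 1. The intervals of clusters 13 and 10, at 16.6 and 13 CPM from 30 and 26 UMIs, overlapped that of cluster 1. Cluster 1, led by the Wnt inhibitor WIF1, NT5E and the Wnt agonist RSPO1, had 11.4 CPM from 51 UMIs and 8.73 CPM from 30, which was 2.77-fold (1.81 to 4.24) and 2.20-fold (1.35 to 3.54) above the other fibroblast-like cells. A higher level was found in cluster 18, led by COCH, TNN, ITGA8, ACAN and COL11A1. The cluster stayed unnamed because its 10 leading genes held the cartilage marker ACAN and 0 fibroblast markers. The named fibroblast-like clusters also had 0 fibroblast markers among their 10 leading genes, so ACAN alone kept cluster 18 unnamed. This cluster still had 10 fibroblast markers detected, and fibroblast was its nearest class. It had 39.8 CPM from 22 UMIs in 59 fresh cells and 50 CPM from 32 UMIs in 74 cryopreserved cells, 6.37-fold (3.81 to 10.2) and 10.0-fold (6.42 to 15.3) above fibroblast-like cells. A single fresh cell held 13 of the 22 UMIs, and without the top cell the levels were 16.5 and 41.0 CPM. In this cluster 32.2% of fresh and 25.7% of cryopreserved cells were in the top 6% of doublet scores, and the part of doublets in its SOX9 was not tested. Single cells weighed in fibroblast clusters too: in cluster 7 of the cryopreserved library 14 of 19 UMIs lay in 1 cell with a high doublet score, and 1.54 CPM was left without it. The dividing fibroblast cluster 21 had 58.3 CPM in its 18 fresh cells, 28.3 CPM without the top cell, and 0 in its 16 cryopreserved cells. That top cell had a high doublet score. Of the fresh cells of cluster 21, 44.4% were in the top 6% of doublet scores, and the part of doublets was not tested.

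PTH1R, the receptor, was a dermal transcript. Fibroblast-like and mural-like cells together held 92.4% of its UMIs (90.4 to 94.1) in the fresh library and 90.0% (87.6 to 92.0) in the cryopreserved library. Fibroblast-like cells made up 41.6 and 35.4% of the cells, and mural-like cells 8.86 and 8.81%. Fibroblast-like cells stood at 48.9 CPM (45.5 to 52.6) from 745 UMIs and at 40.4 CPM (37.3 to 43.6) from 638 UMIs. Mural-like cells stood at 21.3 CPM (15.3 to 28.9) and 22.3 CPM (16.1 to 30), from 41 and 43 UMIs, or 0.435 (0.31 to 0.597) and 0.552 (0.395 to 0.752) of the fibroblast level. In keratinocyte-like cells the receptor was nearly absent. None of 529 fresh cells had a PTH1R UMI, which allows a share with a UMI of up to 0.567%, and the 1058 cryopreserved cells had 6 UMIs, or 0.563 CPM. The level in keratinocyte-like over fibroblast-like cells was at most 0.00977 in the fresh library and 0.014 (0.0051 to 0.0305) in the cryopreserved library. Cluster 8, with most of the ligand, had 0 and 2 PTH1R UMIs.

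Among fibroblasts the receptor was graded, with the WIF1 cluster 1 at the top. Cluster 1 had 86.2 CPM (77.8 to 95.2) in the fresh and 81.2 CPM (72.0 to 91.3) in the cryopreserved library, from 387 and 279 UMIs, and 59.9 and 50.4% of its cells had a UMI. It was 2.58-fold (2.23 to 2.99) and 2.80-fold (2.38 to 3.28) above the other fibroblast-like cells and 1.84-fold (1.52 to 2.24) and 1.63-fold (1.35 to 1.98) above cluster 4, which is led by CTHRC1, ASPN and SFRP2. It was chosen as the fibroblast cluster with most PTH1R, so these ratios are a description. Cluster 4 had 46.9 CPM (39.6 to 55.1) and 49.7 CPM (42.8 to 57.4), and cluster 5, led by CCL19 and LEPR, had 34.6 CPM (26.8 to 44.0) and 40.6 CPM (30.2 to 53.4), with intervals that overlapped those of cluster 4. Lowest were cluster 7, at 24.4 CPM (18.1 to 32.2) and 18.1 CPM (13.8 to 23.4), and cluster 0, led by MYOC and FGF10, at 24.4 CPM (19.4 to 30.2) and 14.1 CPM (10.6 to 18.3), and these overlapped each other. The small clusters 18 and 21 had 61.4 and 54.7 CPM and 49.3 and 51.1 CPM, and the intervals of cluster 18 (42.6 to 85.9 and 38.1 to 76.1) overlapped those of clusters 1 and 4. In the top 6% of doublet scores were 32.2 and 25.7% of the cells of cluster 18 and 44.4 and 18.8% of those of cluster 21. Both mural clusters, the KCNJ8 cluster 9 and the MYH11 cluster 11, stood within 20.7 to 24.2 CPM in the 2 libraries.

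Cells with a PTH1R UMI were deeper, which a split by detection favours in itself, and richer in collagen. Fibroblast-like cells with a PTH1R UMI had a median of 15265 and 11796 UMIs, against 11467 and 9450 in those without, and COL1A1, COL1A2 and COL3A1 took 14.6 and 17.4% of their UMIs, against 8.23 and 9.64%. The part of depth in the order of the clusters was not tested, nor was the part of cluster make-up in the collagen gap. Mural-like cells had a PTH1R UMI in 14.6% (fresh) and 10.2% (cryopreserved) of cases, at median depths of 7686 and 5027 UMIs, and in 4.14 and 3.95% of T or NK-like cells. In the T or NK cluster 16, led by GNLY and KLRB1, 13 UMIs gave 25.6 CPM (13.6 to 43.8) in the cryopreserved library and 5 UMIs gave 11.2 CPM in the fresh library. These intervals overlap those of the mural clusters, and the T or NK-like cells with a PTH1R UMI had 0.0131 and 0.0155% of their UMIs on the same collagen genes, against 0.0518 and 0.0402% in those without one. Of the 10 such cryopreserved cells 3 were in the top 6% of doublet scores (30%, against 7% of those without), among them the cell with most PTH1R, at 3 UMIs. The part of doublets in these counts was not tested. Langerhans or dendritic-like cells had 9.83 and 7.21 CPM.

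The rest of the pathway was read from lists, with a gene called higher or lower where its level differed by at least 2-fold in the same direction in both libraries. Between cluster 8 and the other keratinocyte-like cells, 5.40% of 10709 genes with at least 50 UMIs were called higher and 4.0% lower, with a median log2 ratio of 0.01. PTHLH and SOX9 were both higher, and PTH1R had too few UMIs. Since cluster 8 was chosen by its PTHLH level, the PTHLH call was favoured by that choice and is a description. Of the other 6 genes of the family, PTH itself had 1 UMI and PTH2 had 0 in these cells, and PTH2R and RAMP3 were under 50 UMIs. RAMP2, a partner protein of such receptors, was higher in cluster 8 (10.9 against 2.05 CPM in the fresh and 12.4 against 2.74 CPM in the cryopreserved library), and RAMP1 was not called. Of 33 tested genes for signalling below the receptor, 4 were higher and 0 lower, with a median log2 ratio of 0.26. They were the adenylyl cyclase ADCY7, the protein kinase A subunit PRKAR2B, the phospholipase PLCB1 (7.74- and 4.13-fold, fresh and cryopreserved) and the histone deacetylase HDAC4 (2.45- and 2.17-fold).

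The list of hair follicle and appendage genes had the most calls in cluster 8. Of 27 listed, 22 were found and 16 tested, and 11 of these were higher and 0 lower, with a median log2 ratio of 1.61. They included LHX2, a transcription factor of follicle stem cells (41.6- and 52.6-fold, against 2 and 5 UMIs in the other keratinocyte-like cells). LGR5 (39.4- and 13.3-fold, against 13 and 29 UMIs) and LGR6 (5.29- and 3.16-fold) were others. Also among the 11 were TBX1 (19.6- and 66.6-fold, against 8 and 3 UMIs), the surface protein CD200 (6.52- and 7.27-fold), RUNX1 (5.67- and 5.07-fold), and NFATC1 (2.07- and 2.04-fold). KRT79, a keratin of the follicle opening and sebaceous duct, was uneven at 105- and 2.66-fold, against 3 and 177 UMIs. Since these genes took part in forming the clusters and the lists were chosen with earlier results known, the count describes the cluster that held PTHLH and SOX9 and is no test of it. Of the hedgehog list, 2 of 5 tested genes were higher, SMO (3.24- and 2.29-fold) and the transcription factor GLI2 (19.2- and 5.19-fold), while SHH, the ligand, had 0 UMIs in keratinocyte-like cells. Of the TGF beta list, TGFB1 (3.43- and 2.71-fold) and TGFB3 (5.61- and 6.32-fold) were higher and the co-receptor TGFBR3 (0.214- and 0.293-fold) was lower, of 6 tested.

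SOX9 differed in direction from the SOX genes that act with it in cartilage. SOX5 (0.457- and 0.355-fold) and SOX6 (0.069- and 0.0407-fold) were lower in cluster 8, and SOX13 was higher, of 4 tested. Of the cartilage genes that SOX9 is known to control, only 2 had enough UMIs in keratinocyte-like cells, and CNMD, chondromodulin, was higher (12.1- and 6.73-fold). The other, COL11A1, was not called, at 0.11- and 1.37-fold from 1 and 17 UMIs in cluster 8. COL2A1 had 1 UMI in keratinocyte-like cells. In cluster 18, by contrast, the 3 tested cartilage genes were all higher than in fibroblast-like cells, against 5.84% of 11840 genes called higher and 3.45% lower. They were ACAN, the cartilage proteoglycan (117 against 1.45 CPM and 155 against 0.759 CPM), the collagen COL11A1 (123 against 5.78 CPM and 261 against 3.86 CPM) and the link protein HAPLN1 (47 against 1.64 CPM and 17.2 against 1.33 CPM). ACAN is also the cartilage marker for which the cluster stayed unnamed, so the count of 3 describes the cluster. Of the rest of the list, COL2A1, COL9A1, COL9A3, COL11A2, MATN1 and CNMD had 0 UMIs in cluster 18 in both libraries. COMP had 2 fresh and 0 cryopreserved UMIs there. SOX9 was called higher there, while PTHLH and PTH1R were not called. PTHLH was at 1.92-fold (0.381 to 6.0) and 2.19-fold (0.853 to 4.73), from 3 and 7 UMIs in cluster 18, and PTH1R at 1.26- and 1.36-fold. SOX18 was higher (3.09- and 6.13-fold) and SOX5 was lower, with 0 fresh and 2 cryopreserved UMIs, of 6 tested SOX genes. Of the hedgehog list the receptor PTCH1 (3.84- and 5.77-fold) and SMO (2.61- and 2.64-fold) were higher, of 8 tested.

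**Figure D3:**
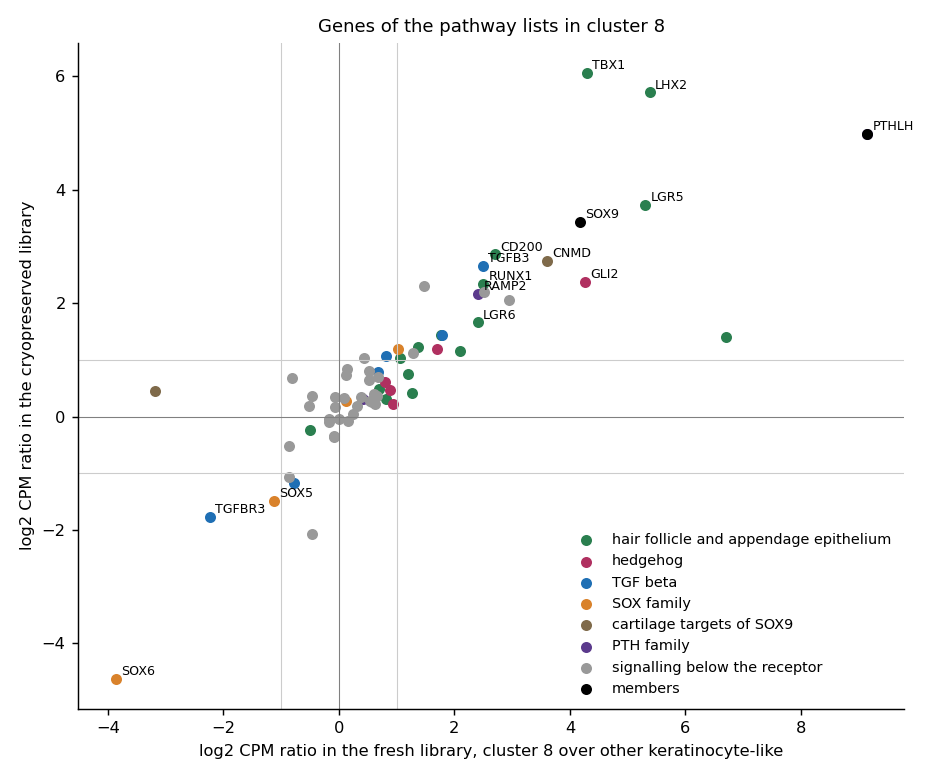
Log2 ratio of level between cluster 8 and the other keratinocyte-like cells for genes of each list, fresh library on the horizontal axis and cryopreserved library on the vertical axis, with grey lines at 2-fold; only genes with at least 50 UMIs are drawn. Of the hair follicle and appendage genes, 11 of 16 tested lie beyond 2-fold higher in both libraries, and SOX5 and SOX6 lie on the lower side.

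Between the layers, the signalling, hedgehog and TGF beta lists had more calls on the fibroblast side, where PTH1R lay. Of 13137 genes tested, 20.8% were called higher and 19.2% lower in keratinocyte-like than in fibroblast-like cells, and of the members PTHLH and SOX9 were higher and PTH1R lower. Of 38 tested signalling genes 3 were higher and 17 lower in keratinocyte-like cells. The lower ones included the G protein subunit GNAS (13.1 against 36.6 CPM and 16.1 against 41.5 CPM), the phospholipase PLCB4 and the phosphodiesterases PDE3A, PDE4B and PDE4D, and the higher ones PLCB3, HDAC5 and the scaffold SLC9A3R1 (13.6- and 16.3-fold). Of 8 tested hedgehog genes 6 were lower and 0 higher, and of 6 TGF beta genes 5 were lower and 0 higher. The receptor partners divided: RAMP1 was higher in keratinocyte-like cells (25.5 against 0.526 CPM and 22.4 against 0.506 CPM) and RAMP2 lower (3.62 against 73.4 CPM and 4.79 against 114 CPM).

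Within fibroblasts, the cluster with most PTH1R had lower levels of several hedgehog genes. Against the other fibroblast-like cells, cluster 1 had 3.26% of 11702 genes called higher and 12.3% lower. PTH1R and SOX9 were among the higher, and PTHLH was not called. Since cluster 1 was chosen by its PTH1R level, the PTH1R call was favoured by that choice and is a description. Of 8 tested hedgehog genes 5 were lower and 0 higher, among them the target genes GLI1 (0 in both libraries against 5.03 and 6.07 CPM) and HHIP (1.56 against 39.5 CPM and 0.873 against 27.4 CPM). Of 38 tested signalling genes 2 were higher, the adenylyl cyclase ADCY3 (2.03- and 2.05-fold) and PDE3B (4.81- and 3.0-fold), and 6 were lower, among them the arrestin ARRB1 (0.130- and 0.208-fold). RAMP2 was lower too (20 against 95.7 CPM and 20.4 against 141 CPM).

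The genes that set cluster 8 most apart from other keratinocytes, ranked by the smaller change of the 2 libraries, were HSD17B2, PTHLH, DACH1, MOXD1, DKK2, ENSSSCG00000049691, PRKD1, ESRRG, GFRA1 and EPHB1. HSD17B2 stood at 24.0 against 0.472 CPM in the fresh and 76.4 against 1.79 CPM in the cryopreserved library, and DKK2 encodes a Wnt antagonist. At the other end were CA4, MMP3, C10orf90, PDZRN4, MT4, LY6D, the suprabasal keratin KRT2, the crosslinking enzyme TGM3, ENSSSCG00000047315 and PTGS2, with LY6D at 39.2 against 2730 CPM and 50.8 against 2260 CPM. All 10 keratinocyte markers found were detected in cluster 8 and took 1.85 and 2.0% of its UMIs, against 2.74 and 2.55% in the other keratinocyte-like cells. Markers of differentiated keratinocytes took 0.173 and 0.316%, against 2.29 and 2.26%. Fibroblast markers took 0.0454 and 0.0369% of its UMIs.

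Across the 20 clusters with at least 20 cells in each library, the genes whose level was most like that of each member were ranked over 11691 genes by the mean of Pearson's r in the libraries on log2(CPM + 1). These correlations describe clusters that share cells' depth and library and are not independent. For PTHLH the nearest were ENSSSCG00000041370 (0.783), USP54 (0.722), LHX2 (0.716), TENM4 (0.697) and HSD17B2 (0.695), and SOX9 came sixth (0.68, the mean of 0.63 and 0.73), followed by ENSSSCG00000033537 and WNK3. For SOX9 they were SFRP1, a Wnt inhibitor (0.869), SHISA2 (0.858), ENSSSCG00000033537 (0.847), NGEF (0.83), FLRT3 (0.82), PRKCI, ARHGEF19 and PPP1R14C, with PTHLH at rank 143. For PTH1R they were ANK2 (0.91), AEBP1 (0.903), ENSSSCG00000038187 and MFAP4 (both 0.897), PRRX1 (0.893), COL6A1 (0.882), ENSSSCG00000027124 (0.881) and ASPN (0.88). PTHLH and its receptor had r of 0.08 and -0.03, and PTH1R and SOX9 had r of -0.13 and -0.15, fresh and cryopreserved.

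Whether PTHLH and SOX9 lay in the same cells was read at a fixed depth of 2000 UMIs per cell. Among all keratinocyte-like cells, 4 of 14 fresh cells with PTHLH also had SOX9 (28.6%, 8.39 to 58.1), against 27 of 509 without PTHLH (5.30%, 3.52 to 7.62). In the cryopreserved library these were 13 of 41 (31.7%, 18.1 to 48.1) and 88 of 999 (8.81%, 7.12 to 10.7). At 1000 UMIs the fresh order turned, with SOX9 in 0 of 4 cells with PTHLH and 17 of 522 without. Within cluster 8 the gap at 2000 UMIs was smaller or absent. There SOX9 was found in 4 of 14 fresh cells with PTHLH (28.6%) and in 20 of 94 without (21.3%, 13.5 to 30.9), and in 12 of 39 cryopreserved cells with PTHLH (30.8%, 17.0 to 47.6) and 66 of 203 without (32.5%, 26.1 to 39.4). At full depth the shares in cluster 8 were 66.7 against 61.8% and 75.9 against 68.9%. The intervals of cells with and without PTHLH overlapped there in both libraries. Outside cluster 8, 15 cryopreserved keratinocyte-like cells had PTHLH at full depth and 10 of them had SOX9 (66.7%, 38.4 to 88.2), against 77 of 793 others (9.71%), with median depths of 12878 and 9938 UMIs. At 2000 UMIs per cell 2 such cells were left, 1 of them with SOX9 (1.26 to 98.7%), and in the fresh library 1 cell at full depth, without SOX9, so the shares outside the cluster could not be compared at a fixed depth.

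**Figure D4:**
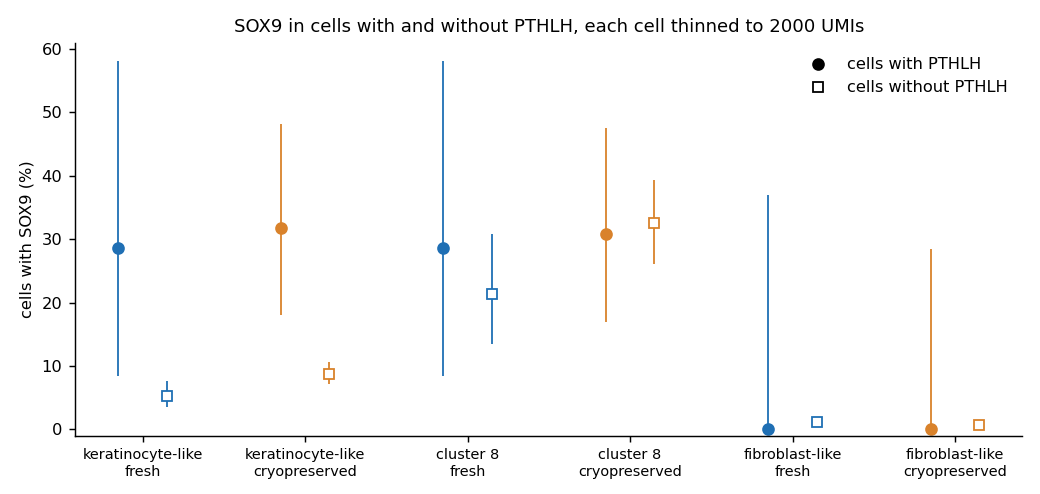
Share of cells with a SOX9 UMI among cells with and without a PTHLH UMI, in percent, each cell thinned to 2000 UMIs, with exact 95% binomial intervals, for each library and for keratinocyte-like, cluster 8 and fibroblast-like cells. Over all keratinocyte-like cells the share is higher with PTHLH (28.6 against 5.30% and 31.7 against 8.81%), and within cluster 8 the intervals overlap (28.6 against 21.3% and 30.8 against 32.5%).

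Between the libraries, the ligand and SOX9 were higher in cryopreserved than in fresh keratinocyte-like cells, and the ligand was also higher in cryopreserved fibroblast-like cells. In keratinocyte-like cells PTHLH was 1.69 times the fresh level (1.37 to 2.11) and SOX9 2.05 times (1.78 to 2.38). Of 10709 genes tested in keratinocyte-like cells, 7.47% were at least 1.5-fold higher in the cryopreserved library, 4.16% had a larger ratio than PTHLH and 2.05% a larger ratio than SOX9. Cluster 8 supplied 110 of the 529 cells behind the fresh level and 250 of the 1058 behind the cryopreserved level. Counted over all cells that passed the filters, its shares were 3.96% (fresh) and 5.92% (cryopreserved). Within cluster 8 the ratio was 1.28 (1.03 to 1.6) for PTHLH and 1.61 (1.37 to 1.90) for SOX9, with 18.3 and 5.76% of 7189 genes above them. In cluster 19 PTHLH had 23 UMIs in 71 cryopreserved cells and 0 in 23 fresh cells. The SOX9 ratio was above 1 in 5 of 5 keratinocyte clusters, at 2.84 (1.3 to 7.38) in cluster 19, 1.78 (1.15 to 2.82) in cluster 2, 2.09 (1.02 to 4.62) in cluster 13 and 7.44 (2.28 to 38.4) in cluster 10. These clusters share the same 2 libraries, so they are not 5 separate observations. The share of all genes above 1 in all 5 clusters was not counted. In fibroblast-like cells SOX9 had a ratio of 0.801 (0.587 to 1.09) and PTHLH of 1.77 (1.21 to 2.63). Of 11702 genes tested in fibroblast-like cells, 2.07% had a larger ratio than PTHLH and 76.1% a larger ratio than SOX9. By cluster the PTHLH ratio was 4.04 (1.81 to 10.6) in cluster 7, where 2 cryopreserved cells held 20 of 45 UMIs. It was 2.42 (0.857 to 7.37) in cluster 5, 1.14 (0.353 to 3.61) in cluster 1 and 0.669 (0.316 to 1.39) in cluster 0.

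The receptor moved less. PTH1R in fibroblast-like and mural-like cells was 0.838 times the fresh level (0.755 to 0.929) in the cryopreserved library, and in fibroblast-like cells 0.825 times (0.741 to 0.918), where 72.4% of 11702 genes had a higher ratio and the median log2 ratio was -0.04. The lowest ratio of the larger clusters was that of the MYOC cluster 0, at 0.579 (0.404 to 0.823), while cluster 1 had 0.942 (0.805 to 1.10), cluster 7 had 0.742 (0.501 to 1.1), cluster 4 had 1.06, cluster 5 had 1.17 and mural-like cells had 1.05 (0.665 to 1.64). The filters removed unequal parts of the libraries: the barcodes outside them held 490 fresh and 94 cryopreserved PTH1R UMIs, 257 and 150 SOX9 UMIs, and 115 and 119 PTHLH UMIs. The cryopreserved library also had fewer UMIs per cell, and freezing, animal, sorting and sequencing run cannot be told apart with 1 library of each kind.

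**Figure D5:**
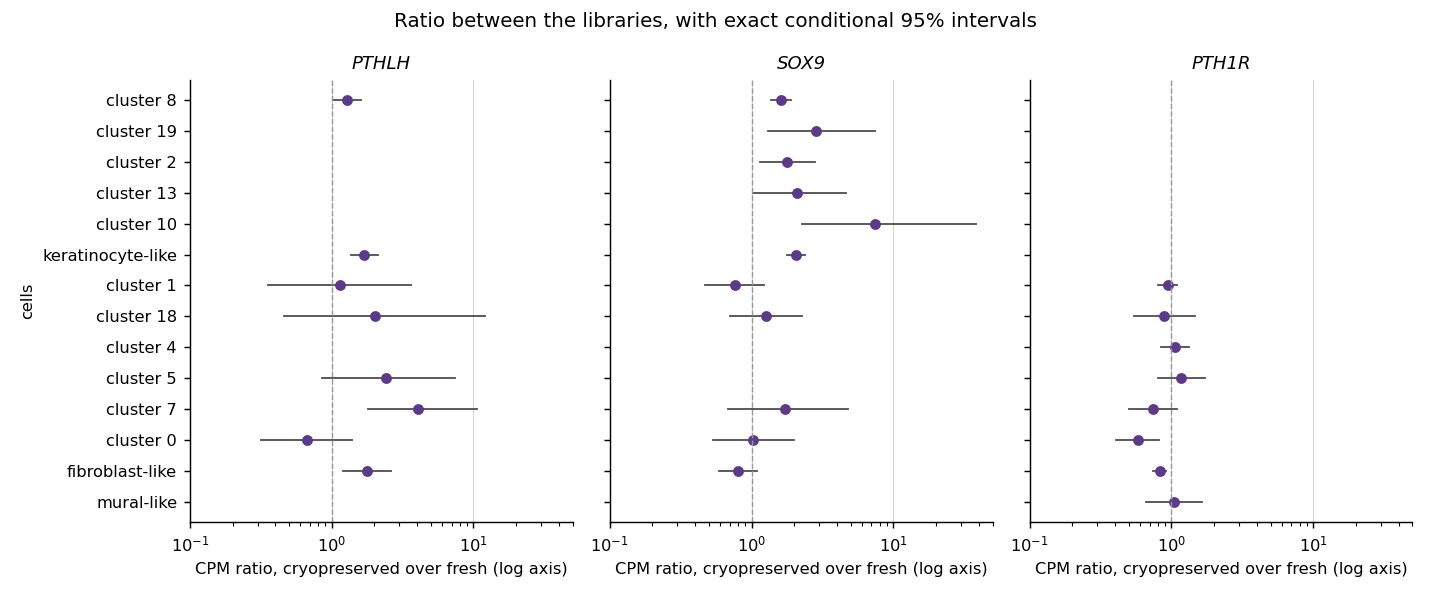
Ratio of the level in the cryopreserved over the fresh library for PTHLH, SOX9 and PTH1R in the classes and clusters that hold them, on a log axis with exact 95% counting intervals and a line at 1. PTHLH in cluster 19 is not drawn, since it had 23 cryopreserved and 0 fresh UMIs. SOX9 lies above 1 in all 5 keratinocyte clusters, which share the same 2 libraries and are not separate observations. PTH1R lies below 1 in fibroblast-like cells (0.825) and near 1 in mural-like cells (1.05).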

How the data were processed

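The authors mapped the reads of each library to the Sscrofa11.1 genome and its Ensembl annotation with Cell Ranger 4.0.0 and STAR 2.5.1b, and deposited raw UMI counts per gene and barcode, without normalization. Cells with at most 4500 genes, 30000 UMIs and 10% mitochondrial UMIs (13 protein-coding genes) were kept, as the study's methods set out. Names for 782 gene IDs were added from a gene name table. The libraries were integrated with Seurat 5.3.0 in R 4.3.3 (2000 features, from which the members were dropped, 30 principal components, resolution 0.8). A cluster took the class whose marker list it expressed most, each marker being counted where at least 10% of the cells had it, and stayed unnamed with under 3 such markers or where its 10 leading genes held more markers of another class. This rule was set after the clusters were seen. Scrublet, run through scanpy 1.11.5, called 3 fresh (0.108%) and 35 cryopreserved cells (0.829%) doublets. These were not removed. The call in the fresh library is too rare to rely on, so the 6% of cells with the highest scores served as an alternative.

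UMIs were summed per library and group of cells. Levels have exact Poisson intervals, shares exact binomial intervals and ratios exact conditional binomial intervals, all at 95% (scipy 1.17.1, numpy 2.4.6, pandas 2.3.3, Python 3.11.15). A group at 0 was given a floor of 3 UMIs. Fold calls used genes with at least 50 UMIs over both libraries and groups. Likeness was ranked over genes with at least 200 UMIs. For thinning, each cell was drawn down to 2000 UMIs with a fixed seed, and shallower cells were left out. Normalization factors of an alternative came from edgeR 4.0.16 (TMM), and figures were drawn with matplotlib 3.10.9. The intervals of ratios and the fold calls were tested on simulated data with known changes. The intervals of levels and shares were not, and for the calls no changes near 2-fold were simulated. Genes named are the members, genes of the pathway lists that passed the fold or were among the most abundant, the 10 highest and 10 lowest genes of the cluster with most PTHLH, and the 8 genes most like each member. PTH, PTH2, PTH2R, RAMP3, SHH, COL2A1, COL9A1, COL9A3, COL11A2, MATN1 and COMP fall outside this rule and were named after their values were seen. The members and lists were chosen with earlier results of these data known. Positions and promoters come from the RefSeq annotation of Sscrofa11.1, and protein sequences were not used here.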

Additional observations from a re-analysis of the deposited data

How the results depend on the processing

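No paired analysis was possible because each condition has 1 library, and for the same reason no library could be left out. Of 176 values recomputed for 19 results under 14 other settings, 155 stayed within the counting interval of the value reported, 21 moved beyond it and 0 changed sign on their own. Shares of UMIs or of cells cannot change sign, so the last count says nothing about them. It also leaves out the order of 2 shares that turned at 1000 UMIs, given below. Clustering all barcodes again gave a cryopreserved over fresh ratio of 2.36 for PTHLH in keratinocyte-like cells, and fresh ratios of 54.6 (PTHLH) and 12.4 (SOX9) for the PTHLH cluster over the other keratinocytes. Without the 6% highest doublet scores, the keratinocyte-like share in the cryopreserved library was 79.6% (PTHLH) and 89.1% (SOX9), and the fibroblast and mural share of PTH1R was 94.4% (fresh) and 92.6% (cryopreserved). The share of keratinocyte-like cells with SOX9 moved with depth, as thinning keeps fewer or more UMIs of each cell. At 1000 UMIs the fresh order turned, to 0.0% of 4 cells with PTHLH and 3.26% of those without, and it was 4.67% without PTHLH in the cryopreserved library. At 5000 UMIs it was 8.79% without PTHLH (fresh) and 64.3% with and 14.4% without (cryopreserved), and with no thinning 65.1 against 15.2% and 74.5 against 20%. A pair of settings was added after the data were seen. Without the dividing keratinocyte cluster the cryopreserved ratios of cluster 8 over the other keratinocytes were 121 (PTHLH) and 14.2 (SOX9). With cluster 18 counted as fibroblast-like the PTH1R share was 96.4% (fresh) and 94.6% (cryopreserved). The cause of the other moves was not tested. Counts limit the fresh PTHLH ratio, which rests on 1 UMI outside cluster 8, and the shares after thinning.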
